A study of Mus musculus with 64 samples.

Results

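Microglia sorted from male mice of 24 months were compared with microglia sorted from male mice of 16 months, 4 mice against 4. These 8 libraries were all those labelled male, PBS-treated and 16 or 24 months old among the 64 libraries of the series, and the comparison covered all 5647 genes of the table. All 8 mice were wild-type C57BL/6J, an inbred laboratory strain, and each gave 1 library. Live cells (7-AAD-) positive for the myeloid surface protein CD11b and low for the leukocyte protein CD45 were sorted from brains without the cerebellum, the gate that separates microglia from most CD45-high blood leukocytes. The 16-month and the 24-month group shared sex, strain, sort and PBS, the vehicle, and differed in age. The series as a whole followed microglial ageing in both sexes, and this comparison asks how male microglia of 16 and of 24 months differ.

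Microglia are the resident macrophages of the brain, and in the healthy brain they depend on TGF-beta signalling and on transcription factors such as SALL1 and MEF2C for their surveying, homeostatic programme. When they or other myeloid cells meet an inflammatory stimulus, NF-kB induces cytokines of the interleukin-1 (IL-1) family together with a set of secondary genes, among them the itaconate enzyme ACOD1 and the lectin receptor Mincle, while brakes such as the decoy receptor IL1R2 are made at the same time. Neutrophils carry many of the same transcripts in abundance, which makes their markers a necessary check in bulk RNA from sorted brain myeloid cells.

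Values are FPKM, fragments mapped to a gene relative to its length and to the library's mapped total, which the authors adjusted for batches with ComBat_seq and rounded to whole numbers. The sources do not say whether FPKM or counts entered that adjustment. The values are called batch-adjusted FPKM after the study's filter, which is stated in FPKM, and comparisons of level between genes rest on that reading. The number of reads behind them is unknown. Summed over genes, the 8 libraries lay between 477054 and 523147. Pairs of 16-month mice had a median Pearson r of 0.964 on log2(value + 1), pairs of 24-month mice of 0.946, and pairs across the ages of 0.944. All 25 homeostatic microglial genes of the marker list were measured, and their summed level made up 9.37% to 12% of a library at 16 months and 8.89% to 11.2% at 24 months. No 16-month or 24-month male library holds a value between 0 and 1, a trait that differs between other groups of the series. The libraries that stand apart are 16-month replicate 2, the highest of the 8 in neutrophil markers, and 24-month replicate 1, the lowest. At 16 months the 22 measured of 28 neutrophil markers summed to between 10407 and 33916, or 2.12% to 6.57% of a library, and at 24 months to between 6102 and 11226, or 1.17% to 2.35%. In bulk RNA, fewer cells of a type and less RNA per cell cannot be told apart.

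Between 16 and 24 months 10 genes fell and 3 other genes rose. Of the 10, 6 are on the cytokine and NF-kB list used here, which holds 31 of the 5647 genes. That list, like the others, was chosen with earlier results of these data known. A gene passed when the Benjamini-Hochberg adjusted p of limma, a linear model that shares its estimate of the spread over genes, was under 0.05 and the fold over 1.5 on the log2(value + 1) scale. The spread was estimated over all 27 male PBS libraries of 7 ages, not over the 8 compared mice alone. Of 5647 genes 13 passed (0.23%), 10 of them lower (0.177%) and 3 higher (0.0531%) at 24 months. The genes that fell were Acod1, Saa3, Hcar2, Il1r2, Clec4e, Slpi, Il1f9, Hp, Plaur and Srgn, and those that rose were Clec10a, Itgav and Acap2. At the threshold the study used for 2 groups, an unadjusted p under 0.05 and a fold over 1.5, 149 genes (2.64%) qualified, 79 higher (1.4%) and 70 lower (1.24%). That split moved from 53% higher to 26% higher (32 of 123 genes) when libraries were scaled by median ratios, and all 10 genes that then passed were lower. The 4 values of one age did not overlap the 4 of the other for 276 genes (4.89%), 215 with the higher values at 24 months (3.81%) and 61 with the lower (1.08%). The median log2 difference of all genes was 0.10. It rose with exon length, from −0.05 in the shortest of 4 bins of genes to 0.20 in the longest. The counts and shares given here were not adjusted for length.

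**Figure D1:**
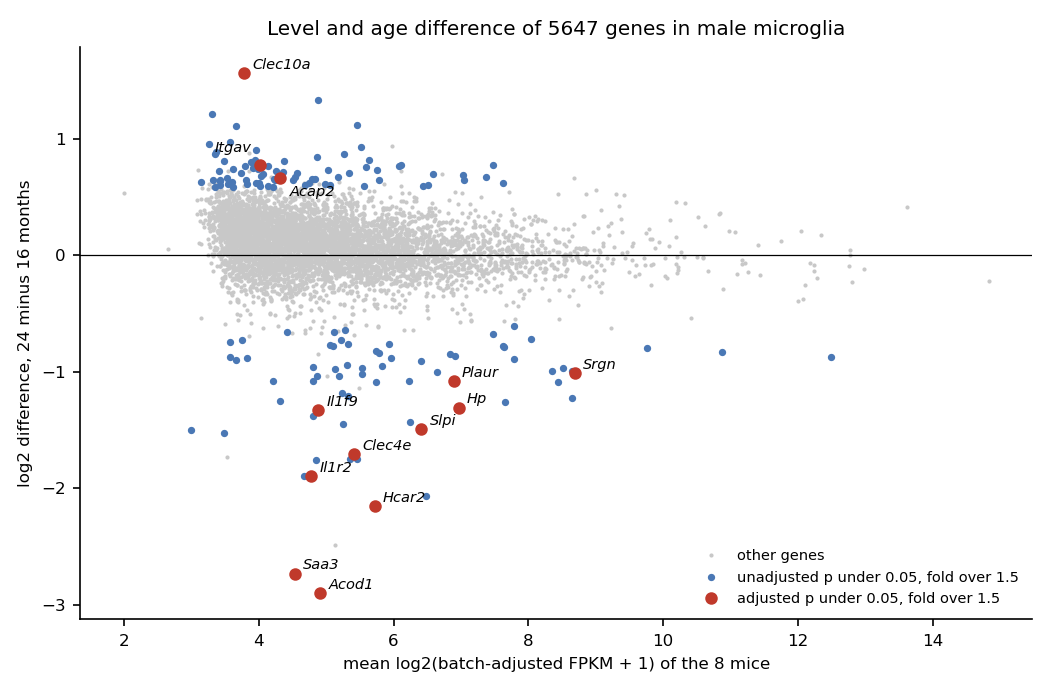
Each point is 1 of 5647 genes, placed by its mean log2(batch-adjusted FPKM + 1) over the 8 mice (x) and its log2 difference of 24 minus 16 months (y). The 13 genes that passed are red and named, the other genes past the unadjusted threshold are blue, and the 10 that fell lie between −1.01 and −2.90.

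The count of 13 rested on few mice. It was 8 without 16-month replicate 1, 6 without replicate 4, and 3 without replicate 2 (Il1r2, Slpi, Itgav) or replicate 3 (Il1r2, Slpi, Hp). On the 24-month side it was 3 without replicate 1 (Il1r2, Slpi, Saa3), 7 without replicate 2, 11 without replicate 3, and 3 without replicate 4 (Il1r2, Slpi, Hp). Il1r2 and Slpi passed without any single one of the 8 mice, with adjusted p of at most 0.0496 (limma). With 16-month replicate 2 and 24-month replicate 1 left out together, which by construction narrows the difference in neutrophil markers, 0 genes passed in limma, while 149 again met the unadjusted threshold. All 13 genes kept their direction there and were among those 149. The count of 13 also rested on the mice of other ages in the fit. It was 8 (5 of the 13) from the 2 compared groups alone and 2 (Il1r2, Clec4e) from ages of 12 months on.

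On the log2(value + 1) scale the largest fall was that of Acod1 (chromosome 14, 103046977 to 103056573 on GRCm38), the enzyme that makes itaconate in activated macrophages. Its batch-adjusted FPKM was 66, 77, 140 and 60 in 16-month replicates 1 to 4, and 2, 26, 9 and 17 in the 24-month replicates. The ages did not overlap, and 16-month replicate 3 was the highest. The younger mice averaged 85.8 ± 36.8 (SD, n = 4) and the older ones 13.5 ± 10.3 (SD, n = 4), a log2 difference of −2.90 ± 0.58 (SE, limma adjusted p = 0.030). Saa3 (chromosome 7, 46711998 to 46715700), an acute phase protein that macrophages secrete, stood at 10, 78, 145 and 98 at 16 months and at 11, 10, 6 and 6 at 24 months. Here 16-month replicate 1 lay among the old mice, and the other 3 stood far above them. The log2 difference was −2.73 ± 0.51 (SE, limma adjusted p = 0.0147), and −3.54 without 16-month replicate 1. In the plain means Saa3 fell more than Acod1, 10-fold against 6.35-fold. Hcar2 (chromosome 5, 123863570 to 123865499), the receptor for beta-hydroxybutyrate and niacin on myeloid cells, had values of 76, 93, 150 and 137 at 16 months and of 15, 23, 38 and 25 at 24 months. Its lowest 16-month value was 2-fold the highest old value, with a log2 difference of −2.15 ± 0.45 (SE, limma adjusted p = 0.0315).

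Clec4e (chromosome 6, 123281789 to 123289870) encodes Mincle, a C-type lectin that binds mycobacterial glycolipids and damage signals. Its values were 73, 84, 89 and 60 at 16 months and 14, 27, 28 and 24 at 24 months, 3.29-fold apart in the means (limma adjusted p = 0.030). The groups stood well apart, with the lowest value in 24-month replicate 1. The neighbouring lectin gene Clec4d (chromosome 6, 123262111 to 123275265), whose product pairs with Mincle, had values of 47, 55, 61 and 46 against 9, 15, 19 and 18. Those groups did not overlap either, but the gene did not pass over all male ages (log2 difference −1.75 ± 0.49, SE, limma adjusted p = 0.221). It passed with a pseudocount of 5 and when the 2 groups were fitted alone (limma adjusted p = 0.00921 and 0.0136). Plaur (chromosome 7, 24462484 to 24475968), the urokinase receptor, stood at 171, 257, 165 and 119 against 63, 107, 80 and 78. All 16-month mice lay above all 24-month mice, and 16-month replicate 2 was the highest (log2 difference −1.08 ± 0.24, SE, limma adjusted p = 0.0442). Srgn (chromosome 10, 62493833 to 62527451), the core protein of the proteoglycan that packs secretory granules, had the highest values of the genes that fell, at 514, 624, 704 and 516 against 279, 262, 325 and 296. Its means of 590 ± 92 (SD, n = 4) and 290 ± 26.9 (SD, n = 4) differed 2.03-fold (limma adjusted p = 0.0411), and its call was lost without any 1 of the 8 mice, the adjusted p then lying between 0.0575 and 0.192.

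**Figure D2:**
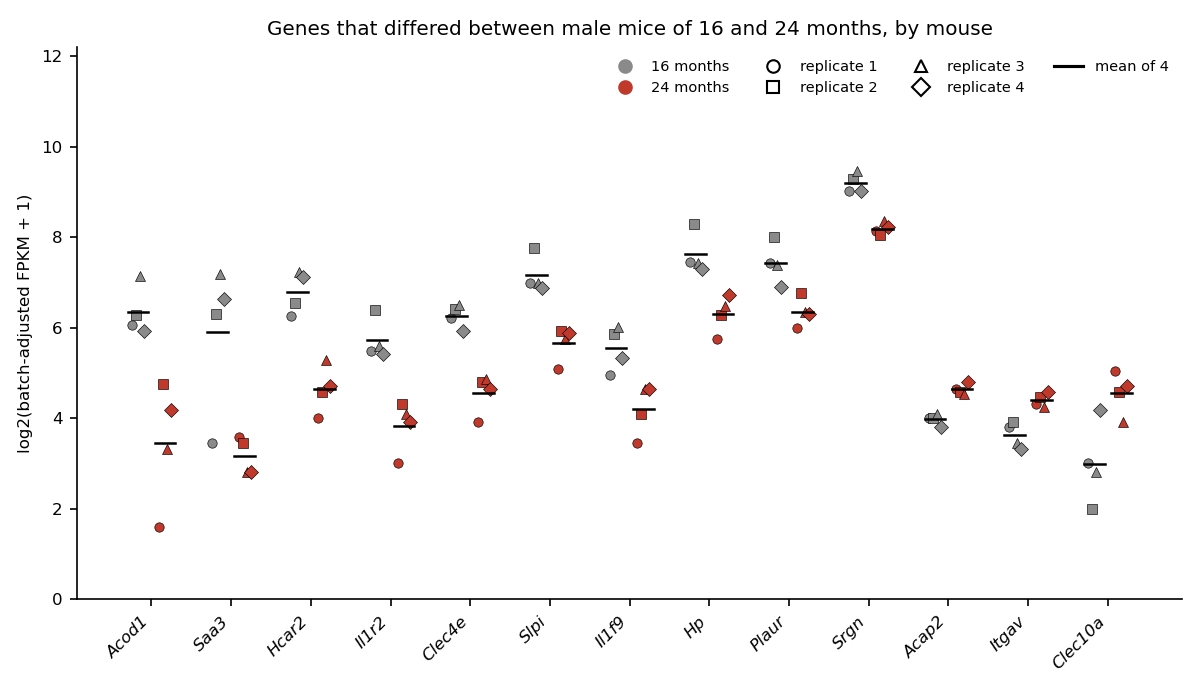
Points are the single mice, 4 of 16 months (grey) and 4 of 24 months (red), with the replicate number as the symbol and the mean as a bar, on the log2(batch-adjusted FPKM + 1) scale (y). The groups do not overlap for 11 of the 13 genes, and they overlap for Saa3, where 16-month replicate 1 lies among the old mice, and for Clec10a.

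Promoters of the genes that fell were searched for 3 short motifs, chosen with these results known, to show the sequence next to the values. Of the 10 genes that fell, 8 were matched to a RefSeq start in the table used here, and the 250 bases before it were read on GRCm38.p6 for each of them. A C/EBP-type motif, TTNNGCAA or its reverse complement TTGCNNAA, occurred in 4 of these 8 promoters, those of Saa3, Clec4e, Slpi and Plaur, and in 8.38% of the promoters of 4571 measured genes. A kB-type motif on either strand, GGG and TTTCC with 2 bases of any kind between, occurred in 0 of the 8 and in 1.33% of the measured genes, and an interferon-type motif on either strand, GAAA repeated after 2 bases of any kind, in Saa3 alone of the 8 and in 3.19%. The 4 promoters with the C/EBP-type letters are shown 5′ to 3′ with matches in capitals, Saa3 at chr7:46715677-46715926 (minus strand), Clec4e at chr6:123289872-123290121 (minus strand), Slpi at chr2:164356508-164356757 (minus strand) and Plaur at chr7:24462233-24462482 (plus strand).
Saa3: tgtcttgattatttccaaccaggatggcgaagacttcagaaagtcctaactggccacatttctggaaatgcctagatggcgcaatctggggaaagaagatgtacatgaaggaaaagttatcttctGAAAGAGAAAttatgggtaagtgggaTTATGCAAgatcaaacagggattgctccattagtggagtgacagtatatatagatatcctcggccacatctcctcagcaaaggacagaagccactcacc
Clec4e: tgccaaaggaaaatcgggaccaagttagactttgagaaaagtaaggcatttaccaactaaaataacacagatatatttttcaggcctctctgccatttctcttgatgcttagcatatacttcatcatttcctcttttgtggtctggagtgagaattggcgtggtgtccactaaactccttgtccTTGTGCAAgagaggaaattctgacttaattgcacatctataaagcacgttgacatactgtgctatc
Slpi: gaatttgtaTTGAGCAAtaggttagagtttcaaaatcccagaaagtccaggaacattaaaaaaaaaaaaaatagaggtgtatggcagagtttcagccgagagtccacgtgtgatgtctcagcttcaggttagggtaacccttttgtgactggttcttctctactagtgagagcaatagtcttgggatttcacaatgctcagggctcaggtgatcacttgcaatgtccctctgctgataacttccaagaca
Plaur: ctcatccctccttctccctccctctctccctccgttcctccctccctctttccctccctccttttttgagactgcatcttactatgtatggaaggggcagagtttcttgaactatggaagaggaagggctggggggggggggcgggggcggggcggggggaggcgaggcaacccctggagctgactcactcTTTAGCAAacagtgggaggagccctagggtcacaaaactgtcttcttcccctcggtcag
The C/EBP-type match begins 99 bases before the listed start of Saa3, 66 before that of Clec4e, 241 before that of Slpi and 59 before that of Plaur, and the second match in Saa3, 125 bases before the start, is the interferon-type one. A match is a stretch of letters, and binding was not measured here. The kB-type letters are rare, at 1.33% of the measured genes, so that 0 of 8 says little about kB sites.

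Within the IL-1 family the decoy receptor, an agonist and the interleukin itself were all lower in the old mice. Il1r2 (chromosome 1, 40074079 to 40125231), the decoy receptor that takes up IL-1 without signalling and that neutrophils also express, stood at 44, 83, 47 and 42 at 16 months and at 7, 19, 16 and 14 at 24 months. No value overlapped, and the fall of 1.89 on the log2 scale had the smallest unadjusted p of all genes (SE 0.30, limma adjusted p = 0.00608). Il1f9 (chromosome 2, 24186476 to 24193568), which encodes IL-36 gamma, an agonist of the IL-36 receptor, had values of 30, 57, 64 and 39 against 10, 16, 24 and 24 (log2 difference −1.33 ± 0.29, SE, limma adjusted p = 0.0419). Il1b, the main secreted IL-1, was at 467, 460, 698 and 437 against 228, 215, 268 and 242. Every 16-month mouse was above every 24-month mouse, and the means of 516 ± 122 (SD, n = 4) and 238 ± 22.7 (SD, n = 4) differed 2.16-fold. It did not pass over all male ages (limma adjusted p = 0.292), but passed when the 2 groups were fitted alone. Singled out after their values were seen, Il1a, the cell-bound IL-1, stood at 263, 192, 531 and 346 against 110, 43, 301 and 195, and Il1rn, the receptor antagonist, at 118, 176, 331 and 160 against 19, 119, 49 and 30. Both overlapped between the ages and neither passed (limma adjusted p = 0.544 and 0.326).

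Of 31 measured cytokine and NF-kB target genes 13 were lower and 0 higher at the unadjusted threshold, that is 41.9% lower against 1.24% of all genes. By sign 22 of the 31 were lower and 9 higher, against 1891 lower of 5647 genes. The NF-kB subunit and inhibitor genes Nfkb1, Nfkb2, Rel, Relb, Nfkbia, Nfkbiz, Nfkbie and Tnfaip3 were measured and were not among the 13. The median log2 difference of the list was −0.55, and 6 members passed after adjustment, Acod1, Saa3, Il1r2, Clec4e, Slpi and Plaur. The mean log2(value + 1) of the list averaged 6.73 ± 0.27 (SD, n = 4) in the younger mice and 6.08 ± 0.23 (SD, n = 4) in the older ones, with ranges of 6.49 to 7.07 and 5.86 to 6.38 that did not overlap. Without 16-month replicate 2 and 24-month replicate 1 the count was again 13. Tnf, the central inflammatory cytokine, was not among the 13, with values of 160, 89, 158 and 251 and of 113, 41, 247 and 99 that overlapped widely (log2 difference −0.57, 95% confidence interval −1.55 to 0.40).

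Among 15 chemokine genes 4 were lower and 0 higher at the unadjusted threshold, which is 26.7% lower against 1.24% of all genes, none of them past the adjusted one, with a median log2 difference of −0.27. Cxcl13, which draws B cells, stood at 49, 27, 34 and 118 against 20, 2, 21 and 21, without overlap, but with single mice far from the rest at both ages (limma adjusted p = 0.183). Cxcl2, a neutrophil attractant, was at 92, 93, 173 and 90 against 70, 22, 89 and 46, so that the lowest 16-month mouse lay just above the highest old one. The monocyte attractant Ccl12 was at 519, 302, 913 and 972 against 426, 107, 355 and 289, and Ccl8 at 80, 46, 107 and 70 against 110, 41, 20 and 28, each with overlap (limma adjusted p = 0.586 and 0.670). Ccl4, an attractant of monocytes and T cells, was at 441, 479, 806 and 786 against 545, 256, 1404 and 282 (log2 difference −0.32, 95% confidence interval −1.44 to 0.80).

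Of 36 interferon-stimulated genes 4 were lower and 0 higher at the unadjusted threshold, 11.1% lower against 1.24% of all genes, and 0 passed the adjusted one. These were the membrane proteins Ifitm1, Ifitm2 and Ifitm6, which restrict virus entry and of which Ifitm6 is also on the neutrophil list, and the guanylate-binding protein Gbp2. Ifitm2 stood at 379, 704, 770 and 500 against 240, 276, 276 and 359, without overlap (log2 difference −0.99, limma adjusted p = 0.183). Gbp2 had 1 high mouse in each group, 87 in 16-month replicate 3 and 42 in 24-month replicate 2, and lay between 13 and 33 in the others. The list had a median log2 difference of −0.19, with 27 of 36 members lower in sign against 1891 of 5647 genes. The median was −0.55 without 16-month replicate 2 and 24-month replicate 1.

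Markers of neutrophils moved the same way as these genes. Of 22 measured neutrophil markers 14 were lower and 0 higher at 24 months at the unadjusted threshold, 63.6% against 1.24% of all genes, with a median log2 difference of −0.87, and 1 of them, Il1r2, passed after adjustment. The count was 9 without 16-month replicate 2, and 4 lower with 1 higher when 24-month replicate 1 was left out as well, with a median of −0.39. S100a9, a subunit of calprotectin and among the most abundant neutrophil transcripts, stood at 2621, 4711, 1651 and 1950 against 1157, 1452, 1409 and 1683. Replicate 2 was far above the rest of its group, 16-month replicate 3 lay within the range of the old mice, and the gene did not pass (limma adjusted p = 0.366). Hdc, which makes histamine, was at 65, 103, 101 and 59 against 11, 31, 27 and 30, and Lrg1, a secreted glycoprotein of granulocytes, at 85, 169, 147 and 109 against 18, 49, 62 and 75 (both limma adjusted p = 0.0845). Neither overlapped between the ages. Lcn2, the iron-sequestering lipocalin, had values of 248, 435, 309 and 239 against 91, 211, 158 and 219, and Wfdc17, a secreted antiprotease-like protein, of 347, 584, 505 and 439 against 208, 197, 227 and 309. For both, the old mice lay below the 16-month mice throughout (limma adjusted p = 0.364 and 0.237). Neutrophil defining genes Prtn3, Ly6g, Padi4, Stfa2l1, Asprv1 and Trem1 are not among the 5647 genes, and none of the 22 measured was at 0 in all 8 mice.

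Slpi and Hp, which passed, shared the highest mouse with the neutrophil markers. Slpi (chromosome 2, 164354070 to 164389095), the secretory leukocyte protease inhibitor, stood at 126, 217, 126 and 117 against 33, 60, 53 and 58 (log2 difference −1.49 ± 0.25, SE, limma adjusted p = 0.00608). Hp (chromosome 8, 109575128 to 109579172), haptoglobin, which binds free haemoglobin and is stored in neutrophil granules, had values of 174, 312, 172 and 156 against 53, 77, 88 and 105 (log2 difference −1.31 ± 0.23, SE, limma adjusted p = 0.00821). In both genes 16-month replicate 2 was the highest and 24-month replicate 1 the lowest mouse, as in the summed neutrophil markers, and no values overlapped. Without these 2 mice the log2 difference of Slpi was −1.10, that of Hp −0.90 and that of Il1r2 −1.40 (unadjusted p in limma 2.08e-04, 3.79e-04 and 1.14e-04). In Acod1 it was −2.30, in Saa3 −2.73, in Hcar2 −2.01, and in Clec4e −1.44. The part of neutrophil RNA in these differences was not tested.

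Other blood and border cells gave smaller counts. Of 16 monocyte and macrophage markers 3 were lower at the unadjusted threshold and 0 higher, 18.8% lower against 1.24% of all genes, namely the chitinase-like Chil3, the calcium-binding protein S100a6 and Anxa2, an annexin. Anxa2 was at 136, 203, 141 and 136 against 66, 101, 81 and 91, again with replicate 2 the highest (limma adjusted p = 0.120). The summed level of these markers was 1483 to 2921 at 16 months and 1315 to 1865 at 24 months. Of 14 markers of border-associated macrophages, the macrophages of meninges and perivascular spaces, 2 were higher and 0 lower, 14.3% higher against 1.4% of all genes, namely Ms4a7 at 28, 70, 44 and 81 against 131, 103, 68 and 68, and the transcription factor Maf at 16, 27, 26 and 16 against 84, 27, 28 and 32. In both genes 24-month replicate 1 was the highest. Their sums were 533 to 805 and 581 to 1083. Of 7 measured T and NK cell markers 0 were at the unadjusted threshold in either direction, with sums of 287 to 684 and 256 to 585. Astrocyte markers were sparse, with 3 of 14 measured. At the unadjusted threshold 2 of these were lower and 0 higher, 66.7% lower against 1.24% of all genes. They were clusterin (Clu) at 23, 12, 16 and 23 against 12, 3, 2 and 11 and the aldolase Aldoc at 15, 10, 17 and 17 against 9, 5, 10 and 10. The third, Slc1a3, had a log2 difference of 0.08. The 2 measured of 8 choroid plexus and ependyma markers summed to between 24 and 449 at 16 months and between 2 and 71 at 24 months, without either gene reaching the unadjusted threshold. No marker reached this threshold among 3 measured of 14 B and plasma cell markers, 6 of 14 of oligodendrocytes and 1 of 12 of neurons. The same held for 5 of 18 of endothelial and mural cells and 3 of 7 of erythroid cells. Of all genes 2.64% reached it, so that 0 in lists this short, that of T and NK cells included, says little. The part of these cells in the results was not tested.

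The genes that rose code for surface and trafficking proteins. Clec10a (chromosome 11, 70156197 to 70170834), the galactose-type lectin of macrophages and dendritic cells also called MGL1, stood at 7, 3, 6 and 17 at 16 months and at 32, 23, 14 and 25 at 24 months. Its means were 8.25 ± 6.08 (SD, n = 4) and 23.5 ± 7.42 (SD, n = 4), with 1 mouse of each age crossing over (log2 difference 1.56 ± 0.35, SE, limma adjusted p = 0.0484). Itgav (chromosome 2, 83724397 to 83806916), the integrin alpha V subunit whose heterodimers release active TGF-beta from its latent form, was at 13, 14, 10 and 9 against 19, 21, 18 and 23 (log2 difference 0.78 ± 0.16, SE, limma adjusted p = 0.0311). Acap2 (chromosome 16, 31092412 to 31201245), a GTPase-activating protein of the endocytic ARF6, had values of 15, 15, 16 and 13 against 24, 23, 22 and 27 (log2 difference 0.67 ± 0.14, SE, limma adjusted p = 0.0303). Both groups were tight and apart for these 2 genes. After median-ratio scaling none of the 3 passed, with log2 differences of 1.48, 0.69 and 0.58 (limma adjusted p = 0.0713, 0.0884 and 0.0778).

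The TGF-beta receptor and transcription factors of the homeostatic programme were higher at 24 months without passing. Tgfbr1 (chromosome 4, 47353222 to 47414931), the type I TGF-beta receptor, stood at 175, 158, 115 and 103 against 204, 252, 220 and 250. The ages did not overlap, and the log2 difference of 0.77 ± 0.18 (SE) came close to the threshold (limma adjusted p = 0.0587). It passed without 16-month replicate 1 (limma adjusted p = 0.0376), with a pseudocount of 5, and among genes with a mean of 50 or more. Mef2c (chromosome 13, 83504034 to 83667080), which restrains the microglial inflammatory response, was at 75, 80, 79 and 65 against 147, 117, 115 and 109, also without overlap (log2 difference 0.69 ± 0.16, SE, limma adjusted p = 0.0845), and passed among genes with a mean of 50 or more (limma adjusted p = 0.0442). Sall1 (chromosome 8, 89027235 to 89044162), the factor that maintains microglial identity, had values of 35, 28, 46 and 37 against 84, 62, 46 and 59, where the highest young and the lowest old mouse were equal (limma adjusted p = 0.586). These were the 3 of 25 homeostatic genes (12% against 1.4% of all genes) higher at the unadjusted threshold, with 0 lower and a list median of 0.17, or 0.08 after median-ratio scaling. The count was 5 without 24-month replicate 2 and 2 without 24-month replicate 1.

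The surface proteins that define homeostatic microglia differed less. P2ry12, the ADP receptor, was at 1574, 1643, 1578 and 1119 against 1469, 1277, 1560 and 1494 (log2 difference −0.02, 95% confidence interval −0.42 to 0.39). Tmem119 lay at 1687, 1194, 1346 and 2132 against 1375, 1565, 1575 and 1639 (−0.01, interval −0.41 to 0.38). Cx3cr1, the fractalkine receptor, was at 1107, 790, 1198 and 918 against 1122, 1125, 1270 and 1383 (0.30, interval −0.16 to 0.76). None passed. The intervals of P2ry12 and Tmem119 lie within the fold threshold, 0.585 on the log2 scale, and that of Cx3cr1 extends past it.

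Among the other genes higher in the old mice without overlap were the sestrin Sesn1, a stress-induced regulator of mTORC1, at 33, 42, 21 and 24 against 57, 55, 78 and 68, and Fli1, an ETS transcription factor of blood cells, at 61, 48, 50 and 46 against 78, 109, 74 and 92. Nonmuscle myosin Myh9 stood at 12, 10, 11 and 8 against 15, 26, 14 and 21, and the small phosphatase Ctdsp2 at 9, 7, 7 and 7 against 25, 14, 12 and 14. None of these 4 passed, and the limma adjusted p lay between 0.237 and 0.585. The iron exporter Slc40a1, ferroportin, was at 43, 48, 31 and 44 against 43, 95, 73 and 75, and the chaperone Pdia4 of the endoplasmic reticulum at 74, 59, 78 and 67 against 80, 135, 98 and 114. Of 25 immediate early genes, which respond to stimulation and to cell isolation, Fosb was higher and Gadd45b lower at the unadjusted threshold. That is 4% each way, against 1.4% higher and 1.24% lower of all genes. Fosb stood at 34, 32, 25 and 40 against 85, 34, 102 and 51, high in 2 old mice, and the list had a median log2 difference of 0.34.

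Of 22 disease-associated microglial genes 0 reached the unadjusted threshold in either direction, with a median log2 difference of −0.16. Of all genes 2.64% reached it, so that 0 in a list this short says little. By sign 18 of the 22 were lower, against 1891 of 5647 genes. Spp1, osteopontin, ranged from 117 to 377 at 16 months and from 50 to 371 at 24 months, Lpl, lipoprotein lipase, from 11 to 29 and from 9 to 28, and Cst7, cystatin F, from 26 to 98 and from 30 to 88. The spread between mice of one age exceeded the difference between the ages in each of these 3. Axl, a receptor for apoptotic cells, was at 33, 19, 30 and 54 against 40, 84, 25 and 35 (log2 difference 0.37, 95% confidence interval −0.28 to 1.02). Cd74, the MHC class II invariant chain, stood at 4634, 3984, 6500 and 4865 against 5462, 8629, 4204 and 4738 (0.17, interval −0.28 to 0.62), and 0 of 10 MHC class II genes and 0 of 17 MHC class I and peptide loading genes qualified. H2-K1, a classical MHC class I gene, was at 636, 493, 697 and 567 against 816, 728, 720 and 694, with only 24-month replicate 4 below a 16-month mouse, at a fold under the threshold (log2 difference 0.31, interval 0.03 to 0.60). Likewise 0 of 37 lysosomal, 17 complement and Fc receptor, 14 cell cycle, 79 cytosolic and 68 mitochondrial ribosomal protein, 75 respiratory chain and 36 proteasome genes qualified, with list medians between −0.10 and 0.05. Among 28 heat shock and chaperone genes 1 was higher (Pdia4) and 0 lower, 3.57% higher against 1.4% of all genes. Among 19 glycolysis and hypoxia genes 1 was lower and 0 higher, 5.26% lower against 1.24% of all genes. It was the glucose transporter Slc2a1, at 53, 46, 97 and 101 against 21, 48, 39 and 59.

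**Figure D3:**
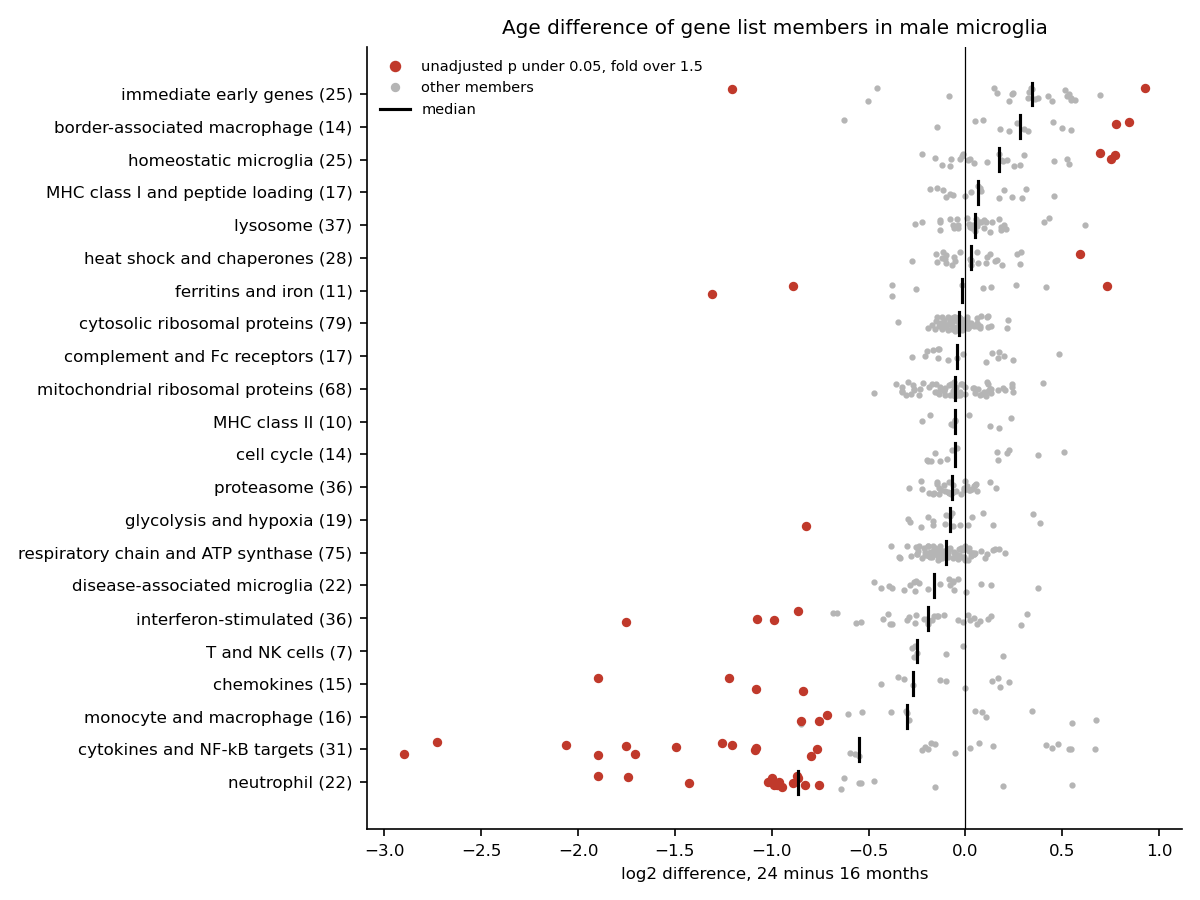
Each row is a gene list with its number of measured members in brackets, and each point a member's log2 difference of 24 minus 16 months (x); points are shifted vertically at random for legibility. Members past the unadjusted threshold are red and gather left of 0 in the neutrophil list (14 of 22) and in the cytokine and NF-kB list (13 of 31), and the black bars are the medians.

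The genes below were also followed in younger males and in males of 19 months. Values between 0 and 1 occur in 2 of 4 libraries of 3 months, 4 of 4 of 6 and of 9 months, and 1 of 5 of 19 months. No library of 12, 16 or 24 months holds one. Where ages differ in this trait, a processing difference and age cannot be told apart, and this was not tested. Acod1 had a mean of 0.125 at 3 months and 1.5 at 12 months, stood at the 85.8 given above at 16 months, and had a median of 12 (range 8 to 52) in the 5 males of 19 months. Clec4e was at 6.5 and 16 at 3 and 12 months, with a median of 31 (range 20 to 61) at 19 months. Il1r2 was at 6 and 15, with a median of 35 (range 20 to 43), and Hcar2 at 7.75 and 28.5, with a median of 50 (range 13 to 114). Saa3 took another course: it was listed at 0 in all 3-month males, had a mean of 7 at 12 months, and still had a median of 58 (range 24 to 120) at 19 months. Clec10a was lowest at the ages between: its mean was 26 ± 6.38 (SD, n = 4) at 3 months, 8 at 12 months, a median of 9 (range 4 to 11) at 19 months, and 23.5 at 24 months. Tgfbr1 was at 281 ± 20.2 (SD, n = 4) at 3 months and 242 at 12 months, against 138 at 16 months and 232 at 24 months, and Mef2c at 123, 107, 74.8 and 122 at these ages. The neutrophil markers had a mean log2(value + 1) of 5.46 ± 0.40 in the 4 mice of 3 months, 6.97 ± 0.33 in the 2 of 12 months, 7.48 ± 0.61 in the 4 of 16 months, 7.02 ± 0.32 in the 5 of 19 months and 6.68 ± 0.57 in the 4 of 24 months (all SD). The 12-month mice, at 6.74 and 7.20, reached into the 16-month range of 7.10 to 8.37. From 16 to 19 months 1 gene passed (0.0177%) and from 19 to 24 months 3 (0.0531%), with 163 (2.89%) and 144 (2.55%) at the unadjusted threshold.

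**Figure D4:**
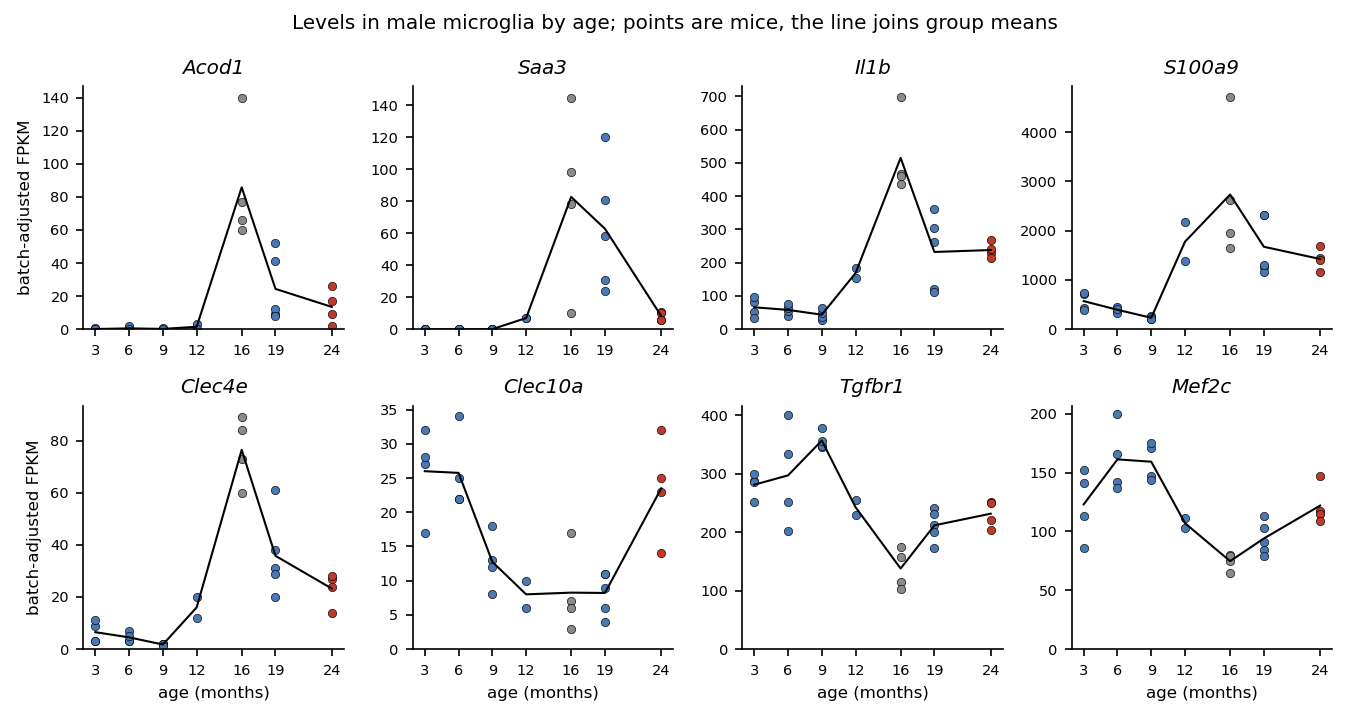
Batch-adjusted FPKM (y) of 8 genes in 27 male mice by age in months (x), where points are mice (grey 16 months, red 24 months, blue the other ages) and the line joins the group means. Acod1, Saa3, Il1b, S100a9 and Clec4e have their highest mean at 16 months, while Tgfbr1 and Mef2c have their lowest mean there. Libraries with values between 0 and 1 occur only at 3, 6, 9 and 19 months, so a processing difference may lie between ages.

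Females offered the same ages, with 5 mice of 16 and 3 of 24 months, all PBS-treated. In the fit of both sexes over their 6 shared ages, 371 genes (6.57%) passed between 24 and 16 months in females, and 4 (0.0708%) did so in males. The test of the difference itself, the male minus the female change, passed for 6 genes (0.106%), with 686 (12.1%) at the unadjusted threshold. The 16-month females hold no value between 0 and 1 and the 24-month females all do, as do none of the males compared, so that a processing difference and age cannot be told apart in females. All 10 genes that fell in males were lower in females too, Acod1 from a mean of 27.6 ± 23.6 (SD, n = 5) to 1 ± 1 (SD, n = 3), Clec4e from 32.4 ± 18.4 to 3.67 ± 0.58, and Srgn from 380 ± 102 to 136 ± 24.6 (limma adjusted p in females 0.0121, 0.00128 and 1.51e-04). Saa3, Il1r2, Slpi and Plaur did not pass in females (limma adjusted p = 0.618, 0.159, 0.172 and 0.0604). None of the 13 passed the test of the difference between the sexes (limma adjusted p from 0.0569 to 0.988). Itgav came closest, at 19.2 ± 2.17 (SD, n = 5) and 14 ± 5.57 (SD, n = 3) in females, a change of −0.49 against 0.78 in males.

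Of the 6 genes whose change differed between the sexes, 0 passed in males over the male ages. Rgs3, a regulator of G-protein signalling, was at 33 ± 11.2 and 21.2 ± 10.7 (SD, n = 4) in males and at 9.4 ± 3.85 and 37 ± 7.21 in females (difference −2.60, limma adjusted p = 0.0106). Stoml1, a stomatin-like protein, hardly moved in males (23.2 and 24) and was at 9.6 and 41.7 in females. Tnfsf13b, which encodes the B cell survival factor BAFF, stood at 40, 64, 42 and 45 against 34, 29, 24 and 26 in males and at means of 29.8 and 50 in females. Lyn, a Src-family kinase of myeloid cells, was at 183, 177, 202 and 215 against 239, 293, 234 and 233 in males and at means of 287 and 182 in females. The count of 6 was 2 and 3 without male 16-month replicate 1 or 2, 10 without male 24-month replicate 3, 1, 17 and 2 without female 16-month replicate 2, 3 or 4, and 1 and 17 without female 24-month replicate 1 or 3.

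**Figure D5:**
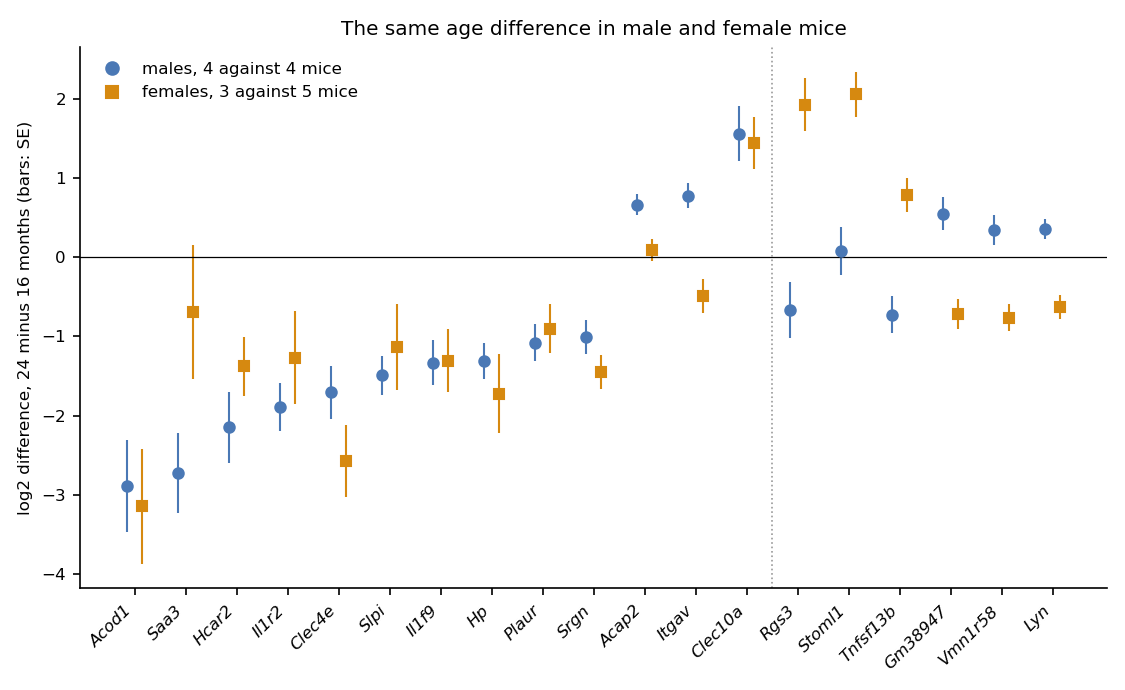
Log2 difference of 24 minus 16 months (y, bars are SE) in males (blue, 4 against 4 mice, SE of the fit over males) and females (orange, 3 against 5 mice, SE of the fit over both sexes). Left of the dotted line are the 13 genes that passed in males, where the female values of all 10 genes that fell lie below 0, and right of it the 6 genes whose change differed between the sexes.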

How the data were processed

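Per the labels the libraries were of microglia, and per the study the cells were sorted and its group sizes count mice. Of 64 libraries 8 were compared. The authors aligned reads with HISAT2 2.0.4 to mm10 and quantified them with Bowtie2 2.2.5 and RSEM 1.2.12, used ComBat_seq over both sexes to remove batch differences (whether from FPKM or counts is not said), and kept genes averaging at least 10 FPKM. What was deposited is treated as a rounded score (297 fractional values remain), depth is unknown, and batches are not named in the sources used here.

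Here log2(value + 1), on which changes of low genes are understated, was fitted with limma 3.58.1 (R 4.3.3, trend) over 27 male PBS libraries of 7 ages, two-sided, and the sexes over 43 libraries of 12 groups. On simulated data of this comparison 77% of genes with a log2 change of 1 and 100% with 2 were called, and 7 of 5447 unchanged genes. The simulation changed 100 genes at each size, against 13 genes that passed here, which makes the adjusted threshold easier to reach. It also drew each library independently, without mice that stand apart in many genes. Recovery in the real data can therefore be lower and was not measured. P-values set the difference of the group means against the spread between mice. That spread was pooled over all libraries of each fit and moderated over genes, not taken from the compared mice alone. Same-numbered replicates correlated at 7.1e-04, −0.10, 0.043 and 0.089 and were not treated as paired. Members and gene lists were chosen with earlier results of these data known. Named genes were those that passed, filled to 12 per direction with non-overlapping genes at an unadjusted p under 0.05, up to 4 members per list, genes the study names for male ageing, and genes that differed between the sexes; others are marked. Coordinates are GENCODE vM21 on GRCm38, which mm10 also names, and promoters are RefSeq, GRCm38.p6.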

Additional observations from a re-analysis of the deposited data

Results flagged for a closer look

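In 200 groups of 4 values (the named genes and the gene lists at both ages) 20 values stood apart from their group by Dixon's criterion at 95%. For independent, normally distributed values chance alone would flag about 1 of 20 groups. Here the groups come from the same 8 mice, and the values of single genes were checked without taking logs. Many of the high values belonged to 2 mice of 16 months. Replicate 2 was the high one for Il1r2 (83, the others 42 to 47), Slpi (217, the others 117 to 126), Hp (312, the others 156 to 174), Anxa2 (203, the others 136 to 141) and the mean log2(value + 1) of the neutrophil list (8.37, the others 7.10 to 7.31). Replicate 3 was high for Gbp2 (87, the others 28 to 33), Cxcl2 (173, the others 90 to 93), Gadd45b (84, the others 53 to 54) and Il1b (698, the others 437 to 467). Ctdsp2 was at 9 in replicate 1 and 7 in each of the others, and P2ry12 at 1119 in replicate 4 against 1574 to 1643.

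At 24 months replicate 1 was high for Maf (84, the others 27 to 32), Ccl24 (28, the others 14 to 15), Ctdsp2 (25, the others 12 to 14) and Gm38947 (27, the others 18 to 19), and low for the mean log2(value + 1) of the ferritin and iron list (6.72, the others 7.01 to 7.05). Replicate 2 was low for Cxcl13 (2, the others 20 to 21) and Gpr180 (18, the others 20), and high for Gbp2 (42, the others 13 to 14) and Lyn (293, the others 233 to 239).

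The change from 16 to 24 months differed between males and females, by an interaction term in limma, for Rgs3 (male minus female −2.60), Stoml1 (−1.98), Tnfsf13b (−1.51), Gm38947 (1.27), Vmn1r58 (1.10) and Lyn (0.99), all on the log2 scale, with adjusted p from 0.0106 to 0.0365.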

How the results depend on the processing

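All 13 genes that passed kept their direction in every alternative in which they were tested. The number of genes that passed was 9 and 17 (12 of the 13) with pseudocounts of 0.5 and 5, 7 (4 of the 13) and 9 among genes with a mean of at least 50 and 20, 11 and 10 after scaling to equal totals and by median ratios, 13 with robust variance, 10 without the trend, 8 (5 of the 13) from the compared groups alone, 2 from ages of 12 months on, 3 to 11 without 1 library, and 0 without 16-month replicate 2 and 24-month replicate 1 (chosen after seeing the data). With the replicate block it was 11. The unadjusted count of 149 became 42 and 96 at means of at least 50 and 20, 412 without a fold minimum (chosen after seeing the data) and 138 to 204 without 1 library. Neutrophil markers lower were 8 at means of at least 50, 4 without the 2 named libraries and 9 to 18 without 1. Cytokine and NF-kB genes lower were 6 at means of at least 50 and 11 to 14 without 1 library, and homeostatic genes higher 2 to 5. The sex difference of 6 genes became 1 and 3 at means of at least 50 and 20, 17 and 15 after scaling to totals and by median ratios, 0 from the compared groups alone and 0 from ages of 12 months on, and 1 to 17 without 1 library. Causes were not tested. Of 1404 alternative values of named genes 1262 kept side and direction, 109 lost and 9 gained a pass, and 24 of 10 genes that did not pass changed sign. After median-ratio scaling Tap1 went to −0.0099 and Stoml1 to −0.0079. Without 1 library the values ran from −0.14 to 0.044 in P2ry12, −0.14 to 0.14 in Tmem119, −0.053 to 0.26 in Ccl24, −0.081 to 0.48 in Lpl, −0.30 to 0.23 in Apod, −0.57 to 0.072 in Cst7, −0.046 to 0.27 in Stoml1, −0.042 to 0.31 in Cd74, −0.11 to 0.23 in Tap1 and −0.69 to 0.27 in Spp1. Without both named libraries P2ry12 went to 0.033, Ccl24 to −0.23, Tap1 to −0.014 and Lpl to −0.21. Depth is unknown, and values rounded to whole numbers limit genes near 10.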

Other observations

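The genes higher and lower at 24 months differed in length and level. The 78 genes with a known exon length among the 79 higher at the unadjusted threshold had a median of 5271 bases, the 70 lower ones 1908 and all genes 4003. In 4 bins of exon length of 1400 or 1401 genes each, from short to long, 12, 10, 24 and 32 genes were higher and 45, 13, 7 and 5 lower, and the median log2 difference of all genes in a bin went from −0.05 over 0.07 and 0.14 to 0.20. The median level was 18.4 batch-adjusted FPKM for the higher and 50.8 for the lower genes, against 26.6 over all genes. RNA quality per library was not analysed here.

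Singled out after its values were seen, Eif2s3y, a Y-linked translation factor subunit gene, was at 32, 30, 30 and 27 in the males of 16 months and at 8, 11, 14 and 16 in those of 24 months, without overlap. It did not pass over all male ages (limma adjusted p = 0.183) and passed when the 2 groups were fitted alone. Its mean was 30.5 at 3 months and 33.5 at 12 months, and males of 19 months had a median of 11 (range 10 to 33). Reads can be shared with the X-linked copy Eif2s3x, which was not tested, and the value is uncertain.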
